A study of Homo sapiens with 6 samples.

Results

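The genes described here are MYC and 56 nucleolar factors that build ribosomes. They were chosen by name, with earlier results of these data known, from a list of ribosome assembly factors, RNA polymerase I subunits and MYC. Of the 57 genes, 57 were found among the 30178 gene rows. Their expression was measured by RNA sequencing in CAL27, a long-established line from an oral carcinoma, classed as adenosquamous in the labels. All 6 libraries come from stable lines kept under the selection drug G418, with GFP-fused proteins as the labels' treatment. The 3 groups of 2 libraries (A and B) carried an empty vector, constitutive wild-type MB21D2 or constitutive MB21D2 Q311E. The question the design names is how Q311E differs from the wild-type form. The labels do not say how many clones stand behind a group or whether the empty vector encodes GFP, and nothing states that A and B were separate cultures, so p-values reflect only how far these libraries spread, which may be technical variation.

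Ribosomes are assembled in the nucleolus, where RNA polymerase I transcribes the precursor of the large ribosomal RNAs. Small nucleolar RNPs modify that precursor, and a large set of assembly factors cleaves it and folds it into the 40S and 60S subunits. MYC is a transcription factor that binds the E-box hexamer CACGTG together with MAX and is known to drive many of these genes, and their RNA is usually high in growing carcinoma cells.

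Values are FPKM, the reads of a gene divided by its length and by the library total. Fold changes are differences of log2(FPKM + 1) ± SE, which understate the change of low genes. A gene was called at an adjusted p under 0.05 in limma, with Benjamini-Hochberg adjustment over all 11481 genes that had a mean of at least 1 FPKM. Of the 57 genes, 56 passed that minimum. A number of genes given as lower or higher between lines counts called genes, unless another measure is named. The library totals lay between 20645410 and 24147306 reads, and the 57 genes together held from 125037 reads (Q311E B) to 270982 reads (wild type A). The smallest count of a tested member in any library was 128 reads. How counting error compares with the spread between libraries was not tested. MB21D2 stood at 8.31 and 7.15 FPKM in the vector, 104 and 106 in the wild-type and 32.8 and 21.2 in the Q311E libraries, so the Q311E change and a lower level of MB21D2 RNA go together and cannot be told apart. The squamous keratin KRT5 was at 405 to 579 FPKM in every library. The 18 squamous markers together summed to 2816 and 2750 FPKM in the vector, 2011 and 2041 in the wild-type and 2285 and 2028 in the Q311E libraries. Of these markers 1 was called higher and 5 lower in wild type against vector, and 4 higher and 4 lower in Q311E against wild type. Over all tested genes limma called 3.54% higher and 8.76% lower in the first comparison, and 17.5% and 10.1% in the second. Of 10 fibroblast markers 7 were below 1 FPKM in every library, with the sum of the 10 between 2.95 and 5.12. The collagen gene COL1A2 was called higher in Q311E against vector and against wild type, at 1.53 and 1.64 FPKM in the Q311E libraries and 0.66 to 0.916 elsewhere. Of 5 leukocyte markers 4 were below 1 FPKM in every library, among them PTPRC, which had 0 in 5 libraries. CD14 was the exception, at 18.8 FPKM in Q311E B against 1.78 to 4.93 elsewhere. Of 5 endothelial markers 4 were below 1 FPKM, and CDH5 lay between 15.4 and 35.2, called higher in Q311E than in wild type (0.81 ± 0.20, adjusted p = 0.0376). The part of these markers in the results on the 57 genes was not tested.

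The promoters were read for what these genes share besides their role. RefSeq promoter windows (GRCh38.p14, 250 bases before to 50 after a gene's start) were available for 48 of the 57 genes, in 58 windows. CACGTG, which reads the same on both strands, occurred in at least 1 window of 24 of the 48 genes (50%), against 2396 of 27305 genes with a window (8.77%) and 1123 of 8757 tested genes (12.8%). The following 30-base stretches are examples that place that hexamer, in capitals, near the start of genes whose values are given below. Each reads 5′ to 3′ on the gene's strand.
NAT10: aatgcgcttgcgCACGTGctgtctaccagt
UTP20: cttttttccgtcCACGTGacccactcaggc
RRP9: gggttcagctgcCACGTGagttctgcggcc
FBL: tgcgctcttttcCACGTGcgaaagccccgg
WDR43: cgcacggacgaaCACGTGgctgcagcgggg
PES1: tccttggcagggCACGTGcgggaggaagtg
MRTO4: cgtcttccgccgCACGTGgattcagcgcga
MYBBP1A: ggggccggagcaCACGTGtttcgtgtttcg
DDX21: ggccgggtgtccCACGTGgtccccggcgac
LYAR: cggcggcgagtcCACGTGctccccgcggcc

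In these stretches the hexamer began from 64 bases before the start (LYAR) to 27 bases after it (MYBBP1A). All genes shown were called lower in Q311E than in wild type. Among those not shown, NOP10 (hexamer 11 bases before the start), GNL2 (3 bases after it) and UTP14A (241 bases before it) were not called in that comparison. NOP2 also holds the hexamer and was not tested. The NAT10 stretch lies at chr11:34105602-34105631 on the plus strand, with the hexamer 15 bases before the start. The RRP9 stretch lies at chr3:51941892-51941921 on the minus strand, and the hexamer begins 5 bases before the start. Of the 28 hexamers in the windows of these genes, 21 (75%) began between 25 bases before and 50 after the start. Over all 35116 windows the share was 624 of 2821 (22.1%). These matches are letters in a window and do not show that any factor is bound there. Tested genes with and without the hexamer had these medians: -0.73 for 23 genes with it and -0.60 for 24 without in Q311E against wild type, and -0.38 and -0.42 in Q311E against vector. In wild type against vector the medians were 0.34 and 0.21.

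**Figure D1:**
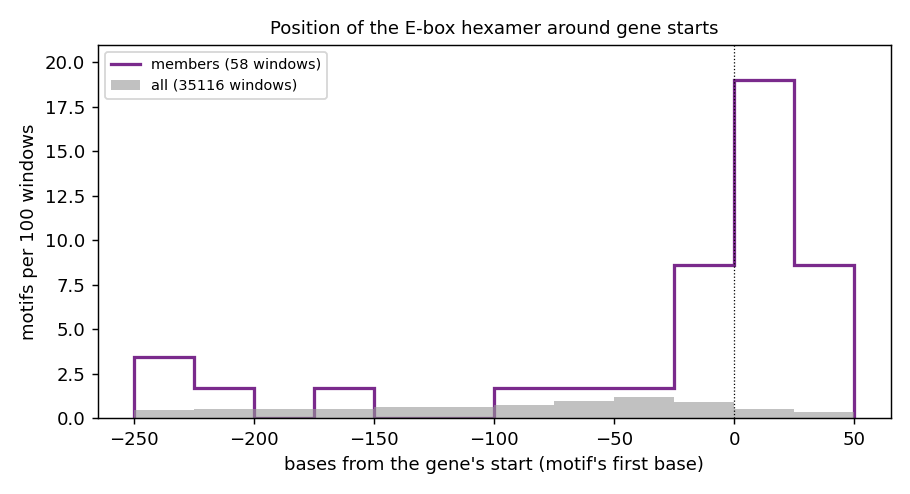
Number of CACGTG hexamers per 100 promoter windows (y axis) in bins of 25 bases by distance of the first base from the gene's start (x axis), for 58 windows of the ribosome biogenesis genes (line) and all 35116 windows (filled). The line peaks at 19 per 100 windows in the 25 bases from the start, where all windows hold 0.547.

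All 3 lines expressed the whole set, except for a low reading of NOP2. The median over the 57 genes of the mean level was 25.2 FPKM, 4 genes stood at 100 FPKM or more and 8 below 10. NPM1, a histone chaperone of the granular nucleolus and the highest of the set, had 448 and 422 FPKM in the vector, 520 and 511 in the wild-type and 294 and 264 in the Q311E libraries. The wild-type libraries were the highest and the Q311E libraries the lowest for NPM1, without overlap, although 49 listed NPM1 pseudogenes leave its exact level uncertain. NOP2, an rRNA methyltransferase of the 60S pathway, read only 16 to 26 reads per library (mean 0.2 FPKM) and was not tested. In GENCODE 29 54.4% of its exon bases overlap another gene, AC006064.6, and how the authors counted such reads is not given in the sources used here.

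The summed FPKM of the 57 genes was 2470 and 2252 in the vector libraries, 2825 and 2846 in the wild-type libraries and 1829 and 1493 in the Q311E libraries. These sums made up 0.942% and 0.806% of all FPKM in the vector, 1.08% and 1.09% in the wild-type and 0.717% and 0.535% in the Q311E libraries. The order wild type, vector, Q311E thus held in every library for the set as a whole. Gene by gene, 31 of 56 tested members (55.4%) had both wild-type libraries above both vector libraries and those above both Q311E libraries. Among all tested genes this order occurred in 6.41%.

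**Figure D2:**
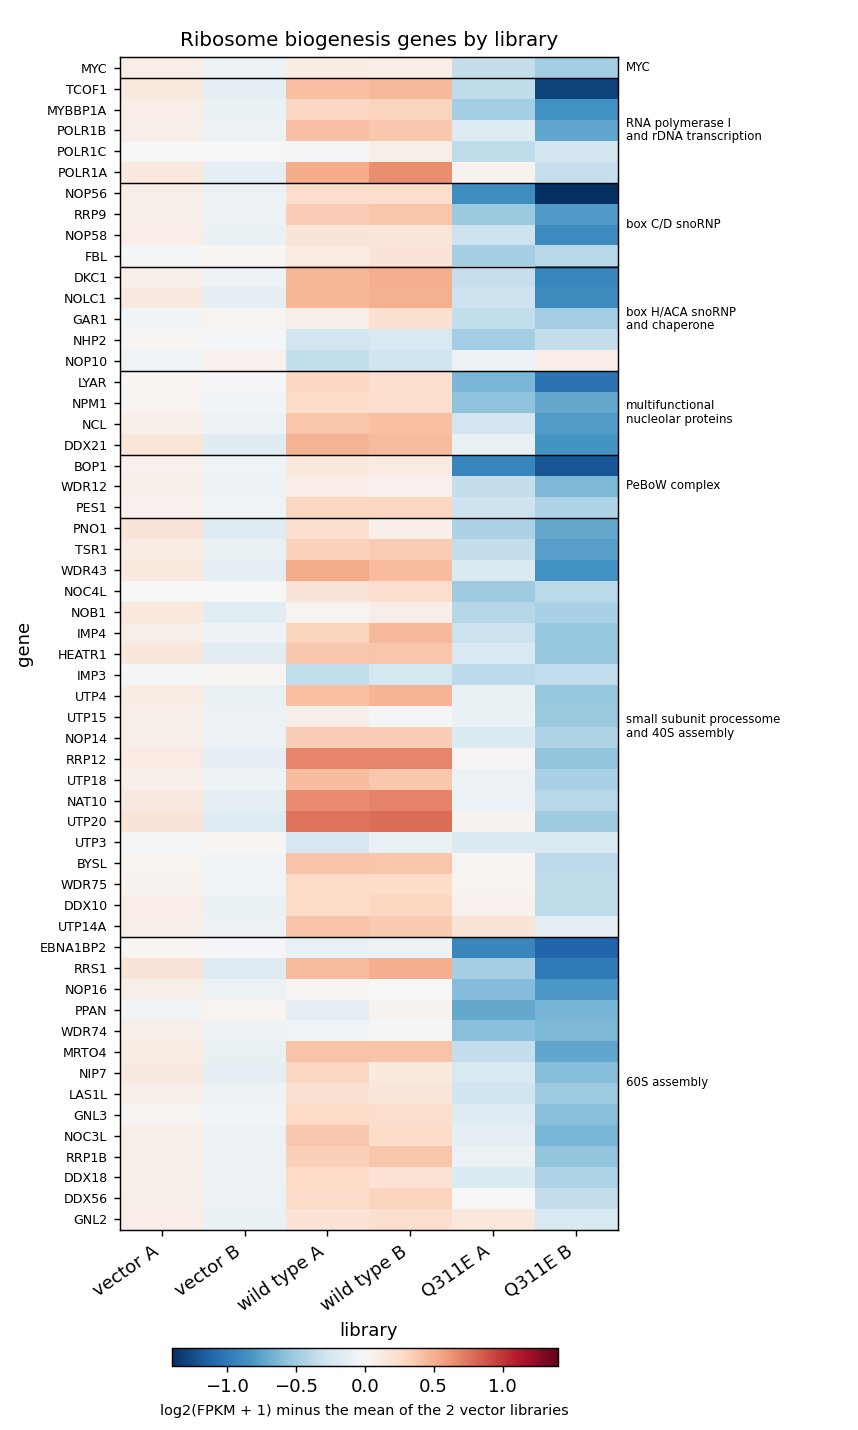
Colour gives log2(FPKM + 1) minus the mean of the 2 vector libraries for 56 tested genes (rows, grouped by role) in the 6 libraries (columns). Most rows are red in both wild-type libraries and blue in both Q311E libraries, with medians over genes of 0.28 and 0.26 in wild type A and B, and -0.29 and -0.54 in Q311E A and B.

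The comparison that the design names, Q311E against wild type, separated the set most widely. Of 56 tested genes 47 were called lower in the Q311E line (83.9%) and 0 higher. Over all tested genes limma called 27.5% in this comparison, 10.1% lower and 17.5% higher. The median log2 fold change was -0.69, against 0.05 for all tested genes, and 53 of 56 genes had both Q311E libraries below both wild-type libraries, against 30.8% of all tested genes. With NOP10, which lay above, 54 members did not overlap (70.1% of all tested genes, 39.3% above). At an unadjusted p under 0.05, 50 genes were lower and 1 higher (44.2% of all tested genes in either direction), and limma-voom on recovered reads also called 47 lower. Since these are bulk cultures, fewer cells that express a gene and less RNA per cell cannot be told apart.

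**Figure D3:**
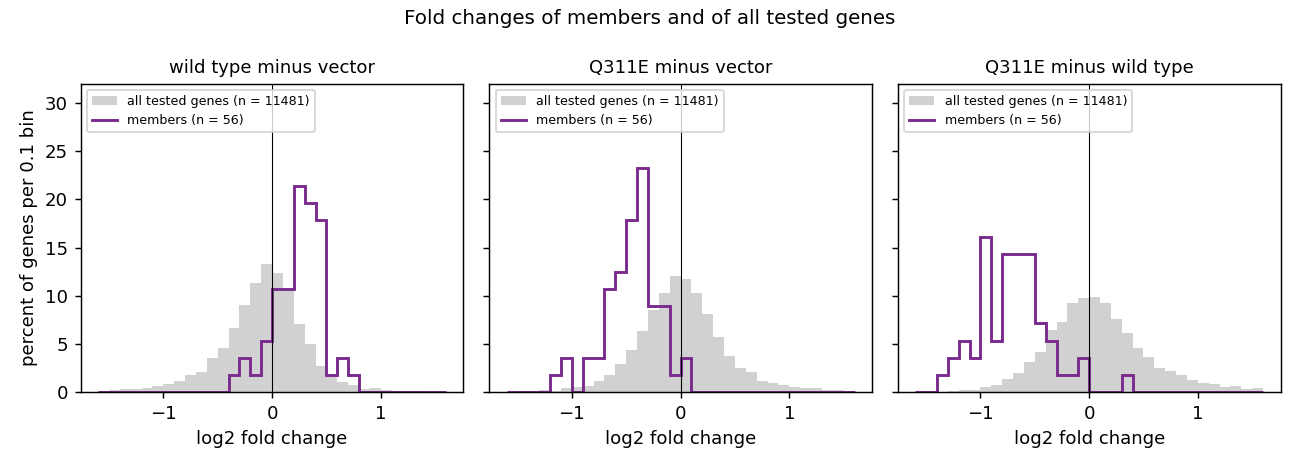
Percent of genes per bin of 0.1 in log2 fold change, for 56 members (line) and all 11481 tested genes (filled), in the 3 comparisons. The members lie right of the background in wild type minus vector (median 0.28) and left of it in both comparisons of Q311E (medians -0.41 and -0.69).

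MYC (ENSG00000136997, GRCh38 chromosome 8, 127735434 to 127741434, plus strand) read 44.3 and 39.5 FPKM with empty vector, 45.2 and 44.5 in the wild-type libraries and 33.1 and 29.5 in the Q311E libraries. Both Q311E values lay below the other 4, while the wild-type values stood only just above the higher vector value. MYC RNA was lower in Q311E than in wild type by 0.51 ± 0.10 on the log2 scale (ratio 0.698, adjusted p = 0.0202) and lower than in the vector (-0.41 ± 0.10, adjusted p = 0.0413). Between wild type and vector it differed by 0.10 ± 0.10 (adjusted p = 0.512). The call against the vector was lost with TPM scaling, with quantile normalization, without a variance trend, without the filter on low values and in the fit of only those 2 groups. The call against wild type was lost without that filter (adjusted p = 0.0518) and in the fit of only those 2 groups (adjusted p = 0.0537). Without any single vector or wild-type library neither call passed (adjusted p between 0.131 and 0.244 against the vector, and between 0.0538 and 0.151 against wild type).

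The members of RNA polymerase I and rDNA transcription were lower in Q311E than in wild type. All 5 tested passed, with a median of -0.85, where 10.1% of all tested genes were called lower. Of 19 further genes of this role, which are not members, 4 were lower and 0 higher (median -0.21). POLR1A, the largest catalytic subunit, had 8.65 and 6.93 FPKM in the vector, 11.5 and 12.7 in the wild-type and 8.07 and 6 in the Q311E libraries (-0.72 ± 0.16 in Q311E against wild type, adjusted p = 0.0308). Its Q311E and vector values overlapped. TCOF1, the treacle protein that supports rDNA transcription, showed a wide gap within a group: 23 FPKM in Q311E A and 11.5 in Q311E B, against 39.9 and 41.1 in wild type. Its difference of -1.26 ± 0.31 passed (adjusted p = 0.0355), and against the vector it did not (-0.82 ± 0.31, adjusted p = 0.12). MYBBP1A, a nucleolar protein that binds MYB, was called in both, at -0.96 ± 0.14 (adjusted p = 0.0116) and -0.66 ± 0.14 (adjusted p = 0.0336).

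The box C/D proteins, which carry the snoRNAs that guide 2′-O-methylation, were all called lower in Q311E than in wild type. Their median was -0.89 over 4 genes, and 10.1% of all tested genes were called lower. NOP56, a core scaffold of that particle, read 82.1 and 73.2 FPKM in the vector libraries, 92.3 and 92.1 in wild type and 41.9 and 28.7 in Q311E. It had the largest fall of the set, -1.38 ± 0.18 against wild type (adjusted p = 0.00906) and -1.14 ± 0.18 against vector (adjusted p = 0.0167). NOP56 lies on chromosome 20 (2652145 to 2658393), and the 30 tested genes nearest to it there had medians of -0.33 and -0.58 in these comparisons, the lowest neighbour medians of any member. The part of the neighbourhood in the fall of NOP56 was not tested, and 3 pseudogenes carry its name. RRP9, which binds the U3 snoRNA, went from 65.5 and 67.2 FPKM in wild type to 35.5 and 29.2 in Q311E (-1.02 ± 0.11, adjusted p = 0.00713), with 53.7 and 48.8 in the vector libraries between them. FBL, the methyltransferase fibrillarin, was lower by 0.57 on the log2 scale against wild type, and here Q311E B (85.8 FPKM) was not below Q311E A (81.5).

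The box H/ACA proteins, which carry the snoRNAs that guide pseudouridylation, did not move as a block. DKC1, the pseudouridine synthase dyskerin, had 46.9 and 42.6 FPKM in the vector, 61.9 and 64.2 in the wild-type and 35.5 and 23.3 in the Q311E libraries (-1.11 ± 0.20 for Q311E against wild type, adjusted p = 0.0174). GAR1 was called lower as well (-0.56 ± 0.09, adjusted p = 0.0158), and so was NOLC1, the chaperone of these particles (-1.06 ± 0.21, adjusted p = 0.0216). NOP10, the smallest subunit, ran the other way: 98.1 and 107 FPKM in the vector, 80.3 and 84.5 in the wild-type and 103 ± 9.01 (mean ± SD, n = 2) in the Q311E libraries. It was the only tested member whose Q311E libraries both lay above the wild-type ones, by 0.32 ± 0.10, which did not pass (adjusted p = 0.0653). Under quantile normalization and with the replicate letter as a block, 1 member was called higher in this comparison. NHP2, the fourth subunit, stood at 41.2 and 45.9 FPKM in Q311E against 48 and 50 in wild type (-0.17 ± 0.08, adjusted p = 0.179).

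**Figure D4:**
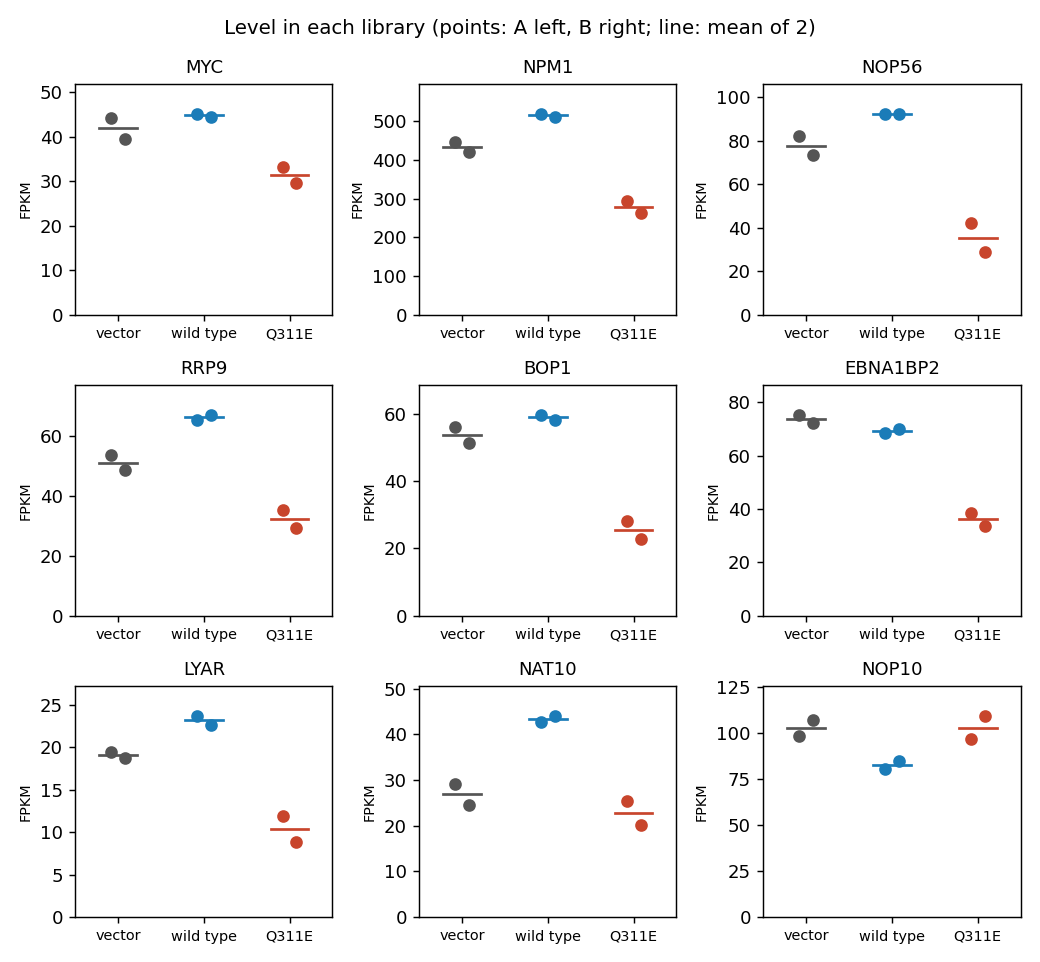
FPKM of 9 members (panels; y axes from 0) in the vector, wild-type and Q311E libraries, with a point per library and a line at the mean of 2. In 8 panels both Q311E points are below both wild-type points, and in the NOP10 panel (means of 103 and 82.4 FPKM) they are above.

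All 4 multifunctional nucleolar proteins were called lower in Q311E than in wild type, with a median of -0.93, where 10.1% of all tested genes were. Against the vector 2 of them, NPM1 and LYAR, were called lower, where 9.28% of all tested genes were. NCL, nucleolin, which binds nascent rRNA and its chromatin, read 199 and 179 FPKM in the vector libraries, 247 and 254 in wild type and 133 ± 34.3 (mean ± SD, n = 2) in Q311E (-0.93 ± 0.18, adjusted p = 0.0224 against wild type). LYAR, a nucleolar zinc finger protein, went from 23.7 and 22.7 FPKM in wild type to 11.9 and 8.87 in Q311E (-1.10 ± 0.14, adjusted p = 0.00816), with 19.5 and 18.8 in the vector. NPM1 fell by 0.89 on the log2 scale (SE 0.10, adjusted p = 0.00759). DDX21, an RNA helicase of polymerase I and II transcription, had 76.4 FPKM in Q311E A and 45.7 in Q311E B (-0.93 ± 0.25 against wild type, adjusted p = 0.0472). The vector values of DDX21, 92.9 and 73.1, overlapped with that pair.

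In the PeBoW complex PES1, BOP1 and WDR12 act together in 60S maturation. All 3 genes were called lower in Q311E than in both other lines. Of all tested genes 10.1% were called lower against wild type and 9.28% against vector. BOP1 (GRCh38 chromosome 8, 144262102 to 144291370) had 56.0 and 51.3 FPKM in the vector, 59.6 and 58.2 in the wild-type and 28.1 and 22.8 in the Q311E libraries. Q311E was lower than wild type by 1.19 ± 0.12 on the log2 scale (adjusted p = 0.00523), the smallest adjusted p of the set, and the 30 genes nearest to BOP1 had a median of 0.07. PES1 (-0.66 ± 0.09, adjusted p = 0.00897) and WDR12 (-0.56 ± 0.12, adjusted p = 0.0274) shifted less. BOP1 thus changed more than its partners in value, a difference that was not tested.

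Of the 20 members in the small subunit processome and 40S assembly, 14 were called lower in Q311E than in wild type. The median of the 20 was -0.66, and 10.1% of all tested genes were called lower. NAT10, the acetyltransferase of 18S rRNA, had 29.2 and 24.5 FPKM in the vector, 42.8 and 44.0 in the wild-type and 25.3 and 20.2 in the Q311E libraries (-0.91 ± 0.14, adjusted p = 0.0124). NOC4L, of the same pathway, went from 26.8 and 27.9 FPKM in wild type to 16.3 and 17.9 in Q311E (-0.65 ± 0.08, adjusted p = 0.00789). WDR43, a UTP-A subunit, was at 0.501 times its wild-type level (adjusted p = 0.0307), and its Q311E libraries read 25.6 and 15.9 FPKM against 42.7 and 40.1. The 6 members of this role that did not pass were WDR75, UTP3, UTP14A, UTP15, IMP3 and DDX10, with fold changes between -0.44 (DDX10) and -0.04 (UTP3). UTP3 stood at 11 and 12.2 FPKM in wild type and 11.3 and 11.2 in Q311E.

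Of the 14 tested 60S factors 13 were called lower in Q311E than in wild type, against 10.1% of all tested genes. The exception was the GTPase GNL2 (-0.25 ± 0.14, adjusted p = 0.229). EBNA1BP2, a nucleolar scaffold of early 60S particles, read 75.3 and 72.3 FPKM in the vector, 68.4 and 70.2 in the wild-type and 38.7 and 33.5 in the Q311E libraries (-0.93 ± 0.09, adjusted p = 0.00554). RRS1, which places the 5S RNP, had 52.0 and 54.6 FPKM in wild type against 27.2 and 18.7 in Q311E (-1.20 ± 0.20, adjusted p = 0.0154). MRTO4, the P0-like placeholder of the ribosomal stalk, had 77.2 and 77.0 against 46.0 and 34.9 (-0.93 ± 0.15, adjusted p = 0.0146). In 15 of the 57 genes over 10% of the exon bases overlap another gene, EBNA1BP2 (20.5%) and PPAN (59.8%, with the readthrough gene PPAN-P2RY11) among them, and single values of such genes are uncertain.

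Limits of this comparison are these. Omitting either vector library, A or B, brought the count of 47 to 18. Omitting wild type A or B brought it to 0 (43 and 45 genes at an unadjusted p under 0.05). It was 53 with Q311E A omitted (52 lower and 1 higher), 49 with Q311E B omitted and 18 in a fit of only those 2 groups. In the same order 8.44%, 8.54%, 0%, 0%, 60.6%, 40.5% and 8.47% of all tested genes were called, and the members' median stayed between -0.86 and -0.56 over the 6 omissions.

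Against the empty vector, 18 of 56 genes (32.1%) were called lower in the Q311E line and 0 higher. Limma called 18.0% of all tested genes in this comparison, 9.28% lower and 8.67% higher. The median was -0.41, against 0.00 for all tested genes, and 43 of 56 genes had both Q311E libraries below both vector libraries, as did 30.0% of all tested genes. Both Q311E libraries were above both vector libraries in 0 members and in 30.1% of all tested genes, so 60.1% of these did not overlap. At an unadjusted p under 0.05, 35 members were lower and 0 higher (35.6% of all tested genes in either direction), and limma-voom also called 18 lower. The comparison shares its Q311E libraries with the previous one.

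EBNA1BP2 showed the smallest adjusted p here, with a difference of -1.02 ± 0.09 (adjusted p = 0.00562). BOP1 differed by -1.05 ± 0.12 (adjusted p = 0.00809) and was at 0.474 times its vector level. The 60S factors WDR74, NOP16 and PPAN were called too. WDR74 had 16.3 and 14.6 FPKM in the vector against 9.91 and 9.6 in Q311E (-0.61 ± 0.08, adjusted p = 0.0127). NOP16 had 20.5 and 18.1 against 12.3 and 10.6 FPKM (-0.70 ± 0.10, adjusted p = 0.0141), and PPAN 3.91 and 4.18 against 2.08 and 2.21 (-0.68 ± 0.10, adjusted p = 0.0149). In WDR74, NOP16, PPAN and EBNA1BP2 wild type and vector differed by at most 0.09 on the log2 scale, and in BOP1 by 0.13 ± 0.12. All 3 PeBoW genes and 3 of 4 box C/D genes were called lower. Of the 20 small subunit genes 2 were called lower, NOC4L and IMP3, a share near the 9.28% of all tested genes, and the difference between roles was not tested. The polymerase I members had a median of -0.45 with MYBBP1A alone called.

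At least 2-fold lower were 3 members here (NOP56, BOP1 and EBNA1BP2) and 8 in Q311E against wild type, and 0 were at least 2-fold higher in either. Over all tested genes 1.32% were at least 2-fold lower and 2.85% higher against vector, and 0.775% lower and 5.59% higher against wild type. Omitting vector A or B brought the count of 18 to 0 (16 and 27 genes at an unadjusted p under 0.05), and omitting wild type A or B to 2. It was 51 with Q311E A omitted, 24 with Q311E B omitted and 2 in a fit of only those 2 groups. Of all tested genes 0.0261%, 0.0261%, 2.34%, 2.35%, 49.5%, 38.5% and 2.28% were called in these fits. With TPM scaling 11 members were called, with 13.2% of all tested genes, and without the filter on low values 6, with 4.01%.

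The Q311E libraries were not alike. Q311E B was below Q311E A in 49 of 56 members (87.5%), against 54.3% of all tested genes, and the median level in B was 77.3% of that in A. In the vector pair B was also below A in 49 members, with a median of 89.1%, against 53.9% of all tested genes. In the wild-type pair this was so in 26 members, with a median of 102%. Across the 56 members the difference of B minus A went with gene length, with a Spearman coefficient of -0.461 in Q311E and -0.457 in the vector (-0.23 and -0.281 across all tested genes). These coefficients are across genes that share a library and are a description. The members' medians with each library's length trend removed were -0.38 for Q311E against vector and -0.68 for Q311E against wild type, with 18 and 47 calls.

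Against the vector, the wild-type line was higher in most of these genes by small steps. The median was 0.28, against -0.05 for all tested genes, and 43 of 56 genes (76.8%) had both wild-type libraries above both vector libraries, as did 32.1% of all tested genes. They were below in 5 members and in 44.9% of all tested genes, which makes 48 members and 77.0% of all tested genes without overlap. Only NAT10 passed the test (0.68 ± 0.14, adjusted p = 0.0382), where limma called 12.3% of all tested genes, 3.54% higher and 8.76% lower, and none of the members was called lower (0 by limma and by limma-voom). At an unadjusted p under 0.05, 15 members were higher and 3 lower (31.6% of all tested genes in either direction). This comparison shares the vector and the wild-type libraries with the other comparisons.

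The fit pools the spread of all 3 pairs, and the SD over genes of the difference between A and B was 0.436 on the log2 scale for Q311E, 0.192 for the vector and 0.145 for wild type. In a fit of only the vector and wild-type libraries 38 of 56 members were called, 35 higher and 3 lower, with 45.9% of all tested genes called. The pooled count of 1 fell to 0 with any one of vector A, vector B, wild type A and wild type B omitted (13, 1, 4 and 2 genes at an unadjusted p under 0.05). It was 38 with either Q311E library omitted, 2 with median scaling and 0 with TPM scaling. The NAT10 call was lost with each of those 4 omissions (adjusted p between 0.128 and 0.252), with TPM scaling (adjusted p = 0.0652) and without the filter on low values (adjusted p = 0.109).

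UTP20, a scaffold of the processome, had the largest difference, with 7.92 and 5.95 FPKM in the vector and 12.3 and 12.5 in wild type (0.77 ± 0.21, adjusted p = 0.0748). RRP12, an export factor of pre-40S particles, had 11.2 and 9.46 against 17.2 and 17.1 FPKM (0.68 ± 0.20, adjusted p = 0.0819), and POLR1A differed by 0.58 ± 0.16 (adjusted p = 0.0774). Genes that were lower without overlap were NOP10 (-0.31 ± 0.10), IMP3 (-0.30 ± 0.08), NHP2 (-0.24 ± 0.08), UTP3 (-0.17 ± 0.08) and EBNA1BP2 (-0.09 ± 0.09). Fold changes went with gene length across the 56 members (Spearman 0.374, against 0.227 across all tested genes), and with the length trend removed the median was 0.29 with 2 genes called.

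The genes around the members lay near the background. For each member the nearest tested genes on its chromosome, up to 15 on each side, gave a median, and 55 of 56 members were below their neighbours' median in both comparisons of Q311E. In wild type against vector 49 of 56 were above it. The medians of these neighbour medians were -0.06 for wild type against vector, 0.00 for Q311E against vector and 0.06 for Q311E against wild type.

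Other genes of the pathway were taken from lists that hold none of these 57 genes. These lists were chosen, like the members, with earlier results of these data known, so their counts are only a description. In Q311E against wild type 10.1% of all tested genes were called lower and 17.5% higher. Of 47 tested further 60S factors, 21 were lower and 1 higher in Q311E than in wild type (median -0.45). Among them NLE1, a WD-repeat protein of late 60S steps, was at 11.9 and 12.2 FPKM in wild type and 6.75 and 5.61 in Q311E (-0.87 ± 0.10, adjusted p = 0.00743). Of 43 further small subunit factors 25 were lower and 0 higher (median -0.40), among them the pre-rRNA processing factor ESF1, with 24.9 and 22.6 FPKM in wild type and 12.8 and 10.1 in Q311E (adjusted p = 0.0114), which was also lower against vector (-1.08 ± 0.14, adjusted p = 0.0119). In the same list the kinase RIOK1 rose in wild type from 12.1 and 10.2 to 21.2 and 20.8 FPKM (0.87 ± 0.11, adjusted p = 0.0156). Of 19 further polymerase I and rDNA transcription genes 4 were lower and 0 higher (median -0.21), of 16 exosome and nuclease genes 6 and 0 (median -0.31), and of 11 snoRNP assembly factors 4 and 1 (median -0.26). Here the AAA+ proteins RUVBL1 (-0.84 ± 0.10) and RUVBL2 (-0.55 ± 0.07) were lower in Q311E than in wild type, with adjusted p = 0.00816 and 0.00858.

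The ribosomal proteins themselves had medians nearer to 0, a difference that was not tested. Over all tested genes 10.1% were called lower in Q311E than in wild type and 9.28% lower than in the vector. Of 79 tested cytosolic ribosomal protein genes 3 were lower and 0 higher in Q311E than in wild type, with a median of -0.11, and 6 were lower and 1 higher against the vector, with a median of -0.16. Their summed FPKM ran from 19532 for Q311E A to 26744 for Q311E B, the lowest and the highest of the 6 libraries, while the 57 assembly genes were lowest in Q311E B. Of 19 tested snoRNA host genes 4 were lower and 0 higher in Q311E than in wild type (median -0.26), among them SNHG7 (-0.65 ± 0.10, adjusted p = 0.0144).

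MYC targets outside the nucleolus were lower in the Q311E line in part. Of 41 tested, 24 were lower and 1 higher in Q311E than in wild type (median -0.51), and 19 were lower and 0 higher against vector (median -0.46). The shares of all tested genes called lower were 10.1% and 9.28% in these comparisons. The target called higher against wild type was the cyclin CCND2, named after its values were seen (0.39 ± 0.10, adjusted p = 0.0439). In wild type against vector 2 were higher and 4 lower, with a median of -0.01. Of all tested genes 3.54% were called higher and 8.76% lower there. HSPE1, the mitochondrial co-chaperonin, had 104 and 106 FPKM in the vector, 48.6 and 49.2 in the wild-type and 32.7 and 35.4 in the Q311E libraries, and was called lower in all 3 comparisons. NME1, a nucleoside diphosphate kinase, read 24.8 and 27.6, 19.2 and 21.6, and 8.93 and 8.38 FPKM in the same order (-1.15 ± 0.10 in Q311E against wild type, adjusted p = 0.00412). Of 16 tested partners, antagonists and regulators of MYC, 3 were higher and 0 lower in Q311E than in wild type. These were the antagonists MXD3 (0.52 ± 0.10, adjusted p = 0.0218) and MXI1 (1.18 ± 0.29, adjusted p = 0.038), and PIM1, a kinase (1.26 ± 0.26, adjusted p = 0.0254). Of all tested genes 17.5% were called higher there. The antagonists MXD1, MXD4, MNT and MGA were not called in any comparison. MXI1 read 3.55 FPKM in Q311E A and 7.42 in Q311E B, against 3.27 and 3.99 in the vector. PIM1 read 12.7 FPKM in Q311E A and 22.7 in Q311E B. Against vector 0 of the 16 were called in Q311E (median 0.16). In wild type against vector MAX, the partner of MYC at the E-box, was lower (-0.36 ± 0.08, adjusted p = 0.0433), and TRRAP, a scaffold that MYC recruits, was higher (0.70 ± 0.14, adjusted p = 0.0346).

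**Figure D5:**
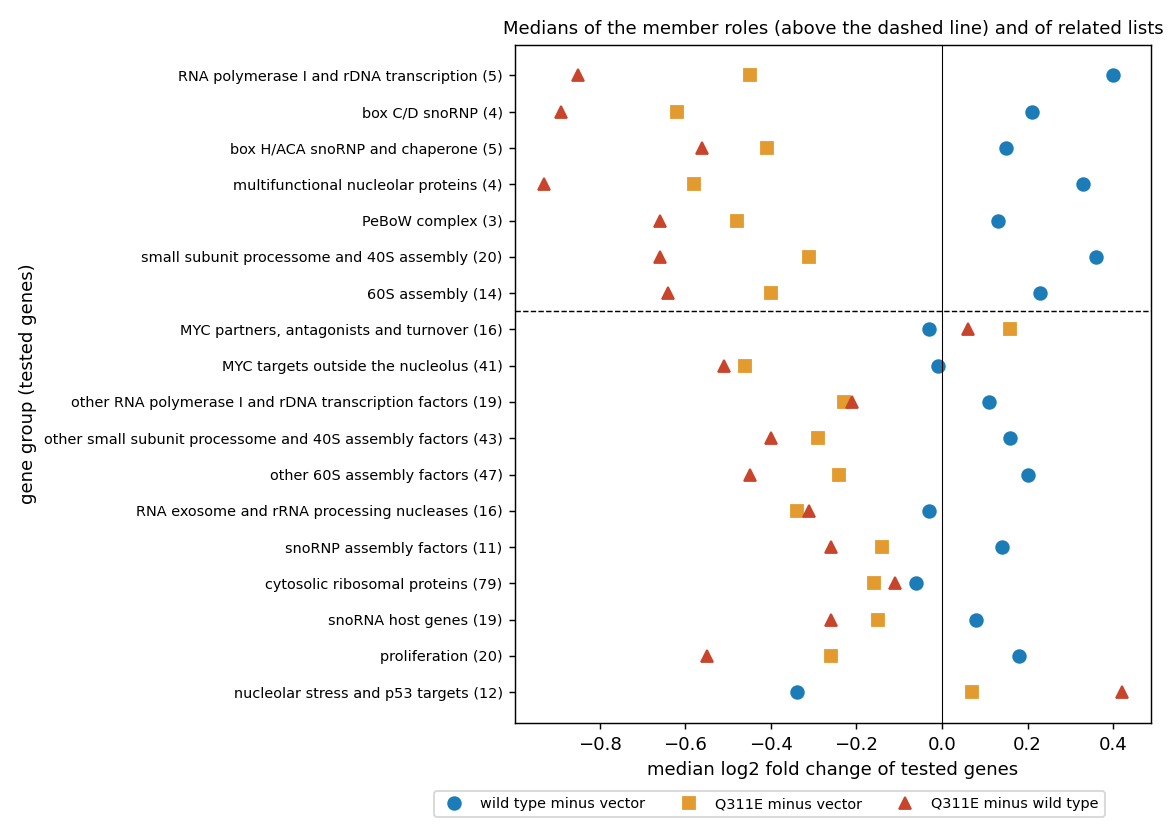
Median log2 fold change (x axis) of the member roles above the dashed line and of related lists below it (y axis, tested genes in parentheses) in the 3 comparisons. For every member role wild type minus vector lies right of 0 and both Q311E comparisons left of it. The medians of the 79 ribosomal proteins lie between -0.16 and -0.06.

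Some proliferation genes were lower in the Q311E line too. Of 20 tested, 7 were lower and 0 higher in Q311E than in wild type (median -0.55), and 2 were lower and 0 higher against vector (median -0.26). Of all tested genes 10.1% and 9.28% were called lower in these comparisons. PCNA, the replication clamp, is in this list and among the MYC targets above, so it is counted in both. It stood at 306 and 298 FPKM in the vector, 331 and 331 in the wild-type and 214 and 175 in the Q311E libraries. Of 12 nucleolar stress and p53 target genes 7 were higher and 0 lower in Q311E than in wild type (median 0.42). In wild type against vector 5 were lower and 0 higher (median -0.34). Between Q311E and vector 2 were higher and 1 lower (median 0.07). Of all tested genes 17.5% were called higher in the first of these comparisons, 8.76% lower in the second and 8.67% higher in the third. CDKN1A, the cyclin-dependent kinase inhibitor p21, had 4.25 and 5.34 FPKM in the vector, 2.0 and 2.35 in the wild-type and 11.4 and 12.8 in the Q311E libraries. The part of proliferation or of these genes in the members' values was not tested.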

How the data were processed

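Total RNA of 6 CAL27 libraries was sequenced, and the deposited values are FPKM per Ensembl gene. The submitters' processing notes name CASAVA and the builds mm8 and mm9 with no role. Which aligner, read counter and annotation the authors used, and whether strand was used, is not given in the sources used here. The members and lists were chosen with earlier results of these data known. Symbols were matched to 29993 of 30178 gene IDs. Whole reads, recovered from the steps of the FPKM values to within 0.001, came out for 99.91% of tested genes and gave the library totals. At GENCODE 29 exon lengths 22361 genes gave whole reads, and with a length fitted to the others, MYC among them, 30030 did.

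Values were tested as log2(FPKM + 1) with limma 3.58.1 in R 4.3.3. All 6 libraries entered 1 fit of 3 groups, with a variance trend, 3 residual degrees of freedom, two-sided p-values and Benjamini-Hochberg adjustment over 11481 genes with a mean of at least 1 FPKM. Calls are at an adjusted p under 0.05. The script was tested on simulated data. Named in full were MYC, the 6 members of smallest adjusted p in each comparison among those called and not overlapping, and the highest and lowest member. Other members, MXI1, MAX, CCND2 and COL1A2 were chosen with their values in view. Of each list up to 3 called genes of smallest p could be named. Alternatives were another pseudocount, filter, scaling, fit and set of libraries, limma-voom and removal of the length trend. Tables and figures used numpy 2.4.6, pandas 2.3.3, scipy 1.17.1 and matplotlib 3.10.9.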

Additional observations from a re-analysis of the deposited data

How the results depend on the processing

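The medians of the tested members kept their sign under all alternatives run, and the counts of calls did not keep their size. These were 56 members, except for 57 without the filter on low values and 52 at a mean of at least 5 FPKM. In wild type against vector, the count of 1 became 0 without the filter on low values (16 at an unadjusted p under 0.05) and 0 with TPM scaling (14 at an unadjusted p under 0.05), 2 with median scaling, 38 in a fit of only the 2 groups and 2 with the length trend removed. In the same order 1.3%, 8.34%, 11.3%, 45.9% and 12.5% of all genes in the fit were called. In Q311E against vector, the count of 18 became 6 without the filter, 11 with TPM scaling and 2 with only the 2 groups. The shares of all genes called in those fits were 4.01%, 13.2% and 2.28%. In Q311E against wild type, the count of 47 became 18 without the filter and 18 with only the 2 groups. Here the shares of all genes called were 5.33% and 8.47%. Leaving out 1 library at a time gave 0 to 38, 0 to 51 and 0 to 53 calls in the 3 comparisons in this order, with medians of 0.21 to 0.35, -0.54 to -0.29 and -0.86 to -0.56. A group then has a lone library, which is assumed to vary like the other groups. The cause of these changes in counts was not tested. For members named in full, 14 calls were lost and 161 values kept their side of the threshold over the alternatives that keep all libraries, 44 and 52 over those that leave one out, and 0 reversed.

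With the replicate letter as a block, 2, 22 and 48 members were called (1 of the 48 higher), with 11.3%, 16.9% and 28.4% of all tested genes, and unchanged medians of 0.28, -0.41 and -0.69. No label says what libraries of the same letter share, and not every pair of groups deviated together: the differences of A minus B correlated at -0.026 between vector and wild type, 0.387 between vector and Q311E and -0.006 between wild type and Q311E. With 2 libraries a group and no stated source of A and B, the spread between cultures is not known.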
